A study of Homo sapiens with 16 samples.

Results

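The 10 genes described here encode proteins that make, recycle, use or export glutathione, or that import the cystine it is built from. They are GCLM, GCLC, GSS, GSR, SLC7A11, SLC3A2, GPX1, GPX4, GSTP1 and ABCC1, taken by symbol from the 25221 genes in the counts. They were chosen with their change after Ro in these libraries already known, so that every value with Ro against DMSO is given for them as a description, with no p, and nothing is read from whether a fit called them. They were not chosen on their levels in one cell line against the other, which were tested. Earlier results of these data were known by then, so these p-values do not come from a blind choice.

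RNA was sequenced from 2 human leukemia lines. MOLM13 is an acute myeloid leukemia line of FAB type M5a that carries the MLL-AF9 fusion, and K562 is a BCR-ABL+ line with erythroid features that was derived from the blast crisis of chronic myeloid leukemia. Cells of each line were kept for 4 h in medium with DMSO or with 20 μM Ro 08-2750 (Ro), a small molecule studied as an inhibitor of RNA binding by MUSASHI-2, and all 4 groups were at 0.1% DMSO. Each group had 4 libraries, numbered as pairs 1 to 4 within each line, which gave 16 libraries. Each line stands for 1 patient's leukemia, and MOLM13 was used at passages 8 to 12 and K562 at passages 12 to 18, so that line and passage cannot be told apart. What the libraries of a pair share was not given in the sources used here, so the p-values measure the spread between these libraries, part of which may be technical.

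Glutathione is the most abundant small thiol of the cell. Glutamate cysteine ligase, made of the catalytic subunit GCLC and the modifier subunit GCLM, joins glutamate to cysteine in the rate-limiting step, and glutathione synthetase (GSS) adds glycine. Cysteine is often the limiting substrate and enters as cystine through the antiporter formed by the light chain SLC7A11 (xCT) and the heavy chain SLC3A2 (CD98). Glutathione peroxidases oxidize glutathione as they remove peroxides, glutathione reductase (GSR) restores it with NADPH, GSTP1 couples it to electrophiles and ABCC1 exports it and its conjugates. Several of these genes are textbook targets of NRF2 (NFE2L2), which binds the antioxidant response element together with a small MAF protein. In leukemia cells this system is best known for its part in resistance to oxidants and to drugs.

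The core of the antioxidant response element, TGACNNNGC on either strand, was looked for in RefSeq promoter windows of 300 bases (GRCh38.p14), from 250 bases before to 50 after each annotated start. The table holds 10 windows for 6 of the 10 genes, namely GCLM, GCLC, SLC3A2, GPX1, GPX4 and GSTP1. Of these 10 windows 3 held the core, against 13.3% of the 35116 windows of all genes. The 3 matches are shown because they are the stretches of these promoters that hold the element, with 10 bases on each side, on the strand of the gene and with the core in capitals.
GCLM, chr1:93909446-93909474, minus strand: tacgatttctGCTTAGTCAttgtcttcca
SLC3A2, chr11:62881652-62881680, plus strand: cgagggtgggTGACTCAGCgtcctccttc
GSTP1, chr11:67583736-67583764, plus strand: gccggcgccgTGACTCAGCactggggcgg

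In GCLM the core lies on the opposite strand of the gene, as TGACTAAGC, from base -34 to base -26 before the start. In SLC3A2 it runs from -37 to -29 in 1 of 3 windows and in GSTP1 from -66 to -58. The cores of SLC3A2 and GSTP1 have the same 9 letters and contain the AP-1 element TGACTCA, which was found in 4.95% of all windows, while that of GCLM does not. A match is a description of letters and not a bound site, and GCLC, GPX1 and GPX4 had no match in these windows.

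Library totals ranged from 3143129 to 43571060 counts, with only 3143129 and 4383241 in K562 DMSO pairs 2 and 4. Levels are given as CPM, in which the counts of every library are brought to one common total, here with TMM (trimmed mean of M-values) library sizes. A limit of 3 counts corresponds to 0.954 CPM in the smallest library and 0.0689 in the largest and covers counting error only. Reads come from near the 3′ end of each mRNA, so counts do not scale with transcript length. Genes can still differ in how well they are captured. In bulk RNA, fewer cells with a transcript and less of it per cell cannot be told apart. No library went against its label by its summed markers. The 8 K562 marker genes summed to between 1504 and 2872 CPM in K562 libraries and between 4.86 and 8.08 in MOLM13 libraries, with HBG1 at 0 in all MOLM13 libraries. The 7 MOLM13 markers with a single row summed to between 566 and 665 CPM in MOLM13 and between 141 and 290.2 in K562, where FLT3 did not exceed 4.14. Not every marker told the lines apart. In DMSO libraries CD33 (8.67 to 24.8 CPM in MOLM13 and 9.05 to 15.6 in K562), LYZ (17.3 to 33.5 and 13.0 to 24.96) and EPOR (2.74 to 5.41 and 1.45 to 7.04) overlapped, and CEBPE did not exceed 0.811 in any library. A single transcript, LOC100507412, took 4.11% to 24.3% of the counts in MOLM13 libraries and 0.269% to 6.44% in K562.

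In MOLM13 the 2 libraries of pair 4 stood apart from the other pairs for several of the 10 genes, in DMSO and in Ro alike. They had the lowest GCLM and the highest GSS, SLC3A2, GPX1 and GPX4 of their groups. Changes within pairs are therefore shown beside the group values.

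**Figure D1:**
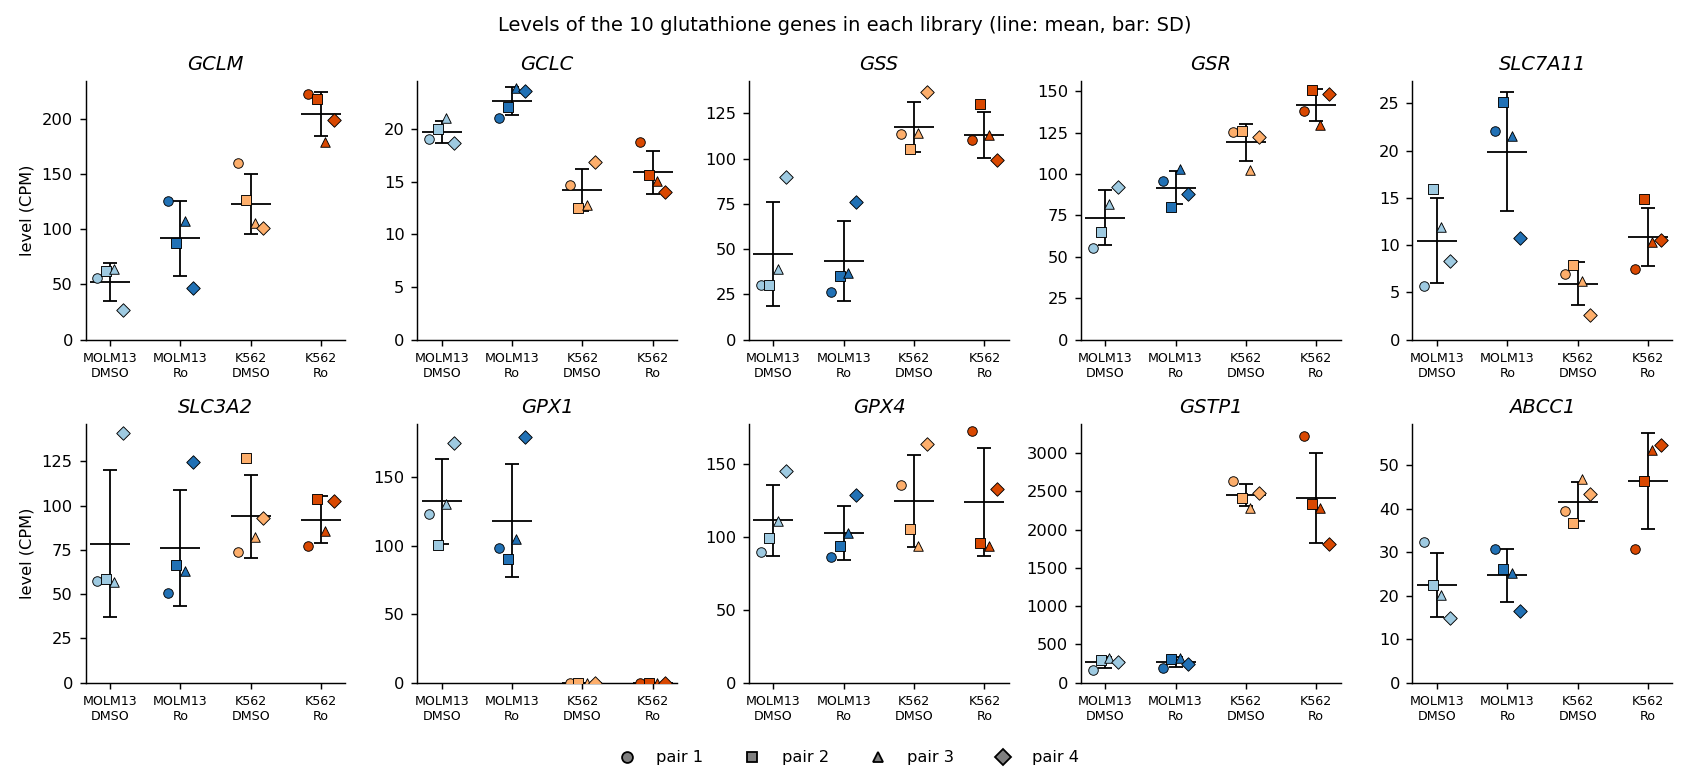
Level of each of the 10 genes (CPM, linear axes from 0) in the 16 libraries, by group. Symbols mark the pair, and the line and bar give the mean and SD of 4 libraries. GCLM sits higher in Ro than in DMSO in every pair, GPX1 is at or near 0 in all K562 libraries, GSTP1 is far higher in K562, and MOLM13 pair 4 stands apart for GSS and SLC3A2.

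GCLM, the modifier subunit of glutamate cysteine ligase (chr1:93885199-93909430, minus strand, hg38), was higher with Ro in all 8 pairs. In MOLM13 its level in pairs 1 to 4 was 56.0, 62.0, 63.9 and 26.4 CPM with DMSO and 126, 87.5, 108 and 46.3 CPM with Ro. In K562 it was 160.2, 126, 105 and 101 CPM with DMSO and 223, 218, 179 and 199.7 CPM with Ro. The groups did not overlap in K562, whereas in MOLM13 the Ro library of pair 4 lay below the DMSO libraries of the other pairs. Within pairs the log2 change was 1.17, 0.50, 0.75 and 0.81 in MOLM13 (mean 0.81, SD 0.28, n = 4) and 0.47, 0.79, 0.76 and 0.98 in K562 (mean 0.75, SD 0.21, n = 4). The fitted log2 fold change was 0.84 (SE 0.35) in MOLM13 and 0.74 (SE 0.19) in K562, and with the pair as a block it was 0.81 (SE 0.09) and 0.76 (SE 0.14). Fitted changes below are without the block unless it is named. Their SEs do not use the pairing and are not comparable with those of fits with the block.

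GCLC, the catalytic subunit (chr6:53497341-53545101, minus strand), had a smaller difference. In MOLM13 it was at 19.1, 20.0, 21.1 and 18.7 CPM with DMSO and at 21.0, 22.1, 23.9 and 23.6 CPM with Ro, higher with Ro in 4 of 4 pairs by 0.14 to 0.33 on the log2 scale. K562 held 14.7, 12.5, 12.8 and 16.8 CPM with DMSO and 18.8, 15.6, 15.1 and 14.1 CPM with Ro. There it was higher in pairs 1 to 3, by 0.23 to 0.35, and changed by -0.26 in pair 4, whose DMSO library held 96 GCLC counts. The fitted log2 change of GCLC was 0.22 (SE 0.13) in MOLM13 and 0.16 (SE 0.18) in K562.

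The ratio of GCLM to GCLC counts within a library does not depend on library scaling. In MOLM13 it was 2.94, 3.10, 3.03 and 1.42 with DMSO and 5.99, 3.96, 4.51 and 1.97 with Ro. In K562 it was 10.9, 10.1, 8.23 and 6.00 with DMSO and 11.8, 14.0, 11.9 and 14.2 with Ro. The ratio was higher with Ro in every pair, and every K562 library had a higher ratio than every MOLM13 library, the closest being the K562 DMSO library of pair 4 (6.00) and the MOLM13 Ro library of pair 1 (5.99). The ratio of counts is not the ratio of transcripts or of subunits, since the capture of the 2 mRNAs may differ.

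**Figure D2:**
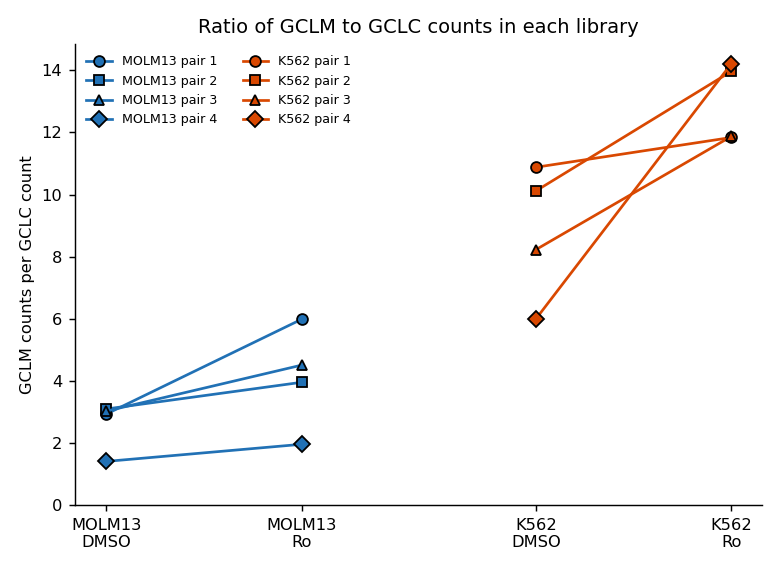
GCLM counts per GCLC count (linear axis from 0) in each library, with a line from the DMSO to the Ro library of the same pair. All 8 lines rise, from between 1.42 and 3.10 in MOLM13 with DMSO and between 6.00 and 10.9 in K562 with DMSO.

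GSS, which completes glutathione (chr20:34928432-34956027, minus strand), had no common direction with Ro. In MOLM13 it was at 30.2, 29.9, 39.2 and 90.0 CPM with DMSO and at 26.5, 35.0, 36.7 and 75.9 CPM with Ro. In K562 it ranged from 105 to 137 CPM with DMSO and from 99.2 to 130.2 CPM with Ro. The change within pairs ran from -0.25 to 0.23 in MOLM13 and from -0.47 to 0.31 in K562, higher in 1 of 4 pairs of each line. The 2 MOLM13 libraries of pair 4 were far above the other 6 in this line. The fitted GSS change of -0.11 in MOLM13 was 0.40 without the DMSO library of pair 4 and -0.51 without its Ro library, while with the block it was -0.06 (SE 0.08).

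GSR, glutathione reductase (chromosome 8, minus strand), was higher with Ro in 7 of 8 pairs. In MOLM13 it was at 55.2, 64.9, 81.8 and 92.4 CPM with DMSO and at 95.8, 80.0, 103 and 88.0 CPM with Ro, and pair 4 was the exception (-0.07 on the log2 scale). The K562 levels were 125, 126, 103 and 122 CPM with DMSO and 138, 151, 129.7 and 148 CPM with Ro, and these groups did not overlap. The mean change within pairs was 0.34 in MOLM13 (SD 0.35, n = 4) and 0.25 in K562 (SD 0.08, n = 4). The fitted GSR change was 0.34 (SE 0.17) and 0.26 (SE 0.15).

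SLC7A11, the cystine carrier xCT (chr4:138164097-138242349, minus strand), was higher with Ro in all 8 pairs, with the widest spread between pairs of the 10 genes. In MOLM13 it was at 5.63, 15.9, 12.0 and 8.31 CPM with DMSO and at 22.1, 25.1, 21.6 and 10.8 CPM with Ro. In K562 it was at 6.88, 7.85, 6.17 and 2.63 CPM with DMSO and at 7.51, 14.9, 10.3 and 10.5 CPM with Ro. Within pairs the log2 change was 1.95, 0.65, 0.85 and 0.37 in MOLM13 (mean 0.96, SD 0.69, n = 4) and 0.12, 0.92, 0.73 and 1.96 in K562 (mean 0.93, SD 0.76, n = 4). The largest change in each line came from a low DMSO library, with 39 SLC7A11 counts in MOLM13 pair 1 and 15 in K562 pair 4. The groups overlapped in both lines.

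The fitted SLC7A11 change was 0.93 (SE 0.34) in MOLM13 and 0.88 (SE 0.30) in K562. From K562 pairs 1 and 3 alone, which leave out both small DMSO libraries, it was 0.43 (SE 0.19), and that of GCLM 0.60 (SE 0.10). This fit has the pair as a block, so it differs from the fit before it in the model as well as in the libraries. With so few libraries these SEs are themselves uncertain and are no sign of better precision than the fits to all pairs. SLC7A11-AS1, which overlaps SLC7A11 on the opposite strand, held at most 32 counts in any library and stayed between 0.175 and 1.47 CPM. Whether the counting used strand was not given in the sources used here.

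SLC3A2, the heavy chain that pairs with SLC7A11 and with other amino acid carriers (chr11:62856109-62888860, plus strand), had no common direction with Ro. In MOLM13 it was at 57.6, 58.4, 57.0 and 141 CPM with DMSO and at 50.7, 66.6, 63.4 and 124 CPM with Ro. The levels of SLC3A2 in K562 were 73.8, 127, 82.0 and 93.2 CPM with DMSO and 77.0, 104, 85.6 and 102 CPM with Ro. The change within pairs ran from -0.18 to 0.19 in MOLM13 and from -0.29 to 0.14 in K562. The fitted change with the block was 0.013 (SE 0.08) in MOLM13 and -0.0004 (SE 0.14) in K562.

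GPX1, the abundant cytosolic glutathione peroxidase (chr3:49357176-49358353, minus strand), could be followed with Ro only in MOLM13. It was at 123, 100.5, 131 and 175 CPM with DMSO and at 98.1, 90.5, 105 and 179.7 CPM with Ro, with changes of -0.33, -0.15, -0.31 and 0.04. GPX4, the peroxidase that acts on lipid peroxides in membranes (chr19:1103994-1106779, plus strand), was lower with Ro in 4 of 4 MOLM13 pairs, by small amounts (-0.06 to -0.17). Its MOLM13 levels ranged from 89.4 to 145 CPM with DMSO and from 85.8 to 129 CPM with Ro. In K562 GPX4 ranged from 93.6 to 164 CPM with DMSO and from 93.9 to 173 CPM with Ro, and its changes of 0.35, -0.14, 0.01 and -0.30 had no common direction.

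GSTP1, the pi class glutathione transferase (chr11:67583812-67586653, plus strand), was at 167, 297, 317 and 275 CPM in MOLM13 with DMSO and at 194, 309, 329 and 247 CPM with Ro. In K562 it was at 2636, 2409.6, 2282 and 2474 CPM with DMSO and at 3223, 2330.2, 2285 and 1814 CPM with Ro. The changes ran from -0.16 to 0.22 in MOLM13 and from -0.45 to 0.29 in K562, around fitted values of 0.05 (SE 0.22) and -0.02 (SE 0.22). ABCC1, the multidrug resistance protein that exports glutathione conjugates (chr16:15949143-16143053, plus strand), was at 32.4, 22.5, 20.0 and 15.0 CPM in MOLM13 with DMSO and at 30.8, 26.0, 25.3 and 16.4 CPM with Ro. In K562 ABCC1 was at 39.4, 36.6, 46.9 and 43.3 CPM with DMSO and at 30.6, 46.4, 53.5 and 54.5 CPM with Ro. It was higher with Ro in pairs 2, 3 and 4 of both lines and lower in pair 1 of both, and the fitted change was 0.16 in each (SE 0.27 in MOLM13 and 0.20 in K562).

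**Figure D3:**
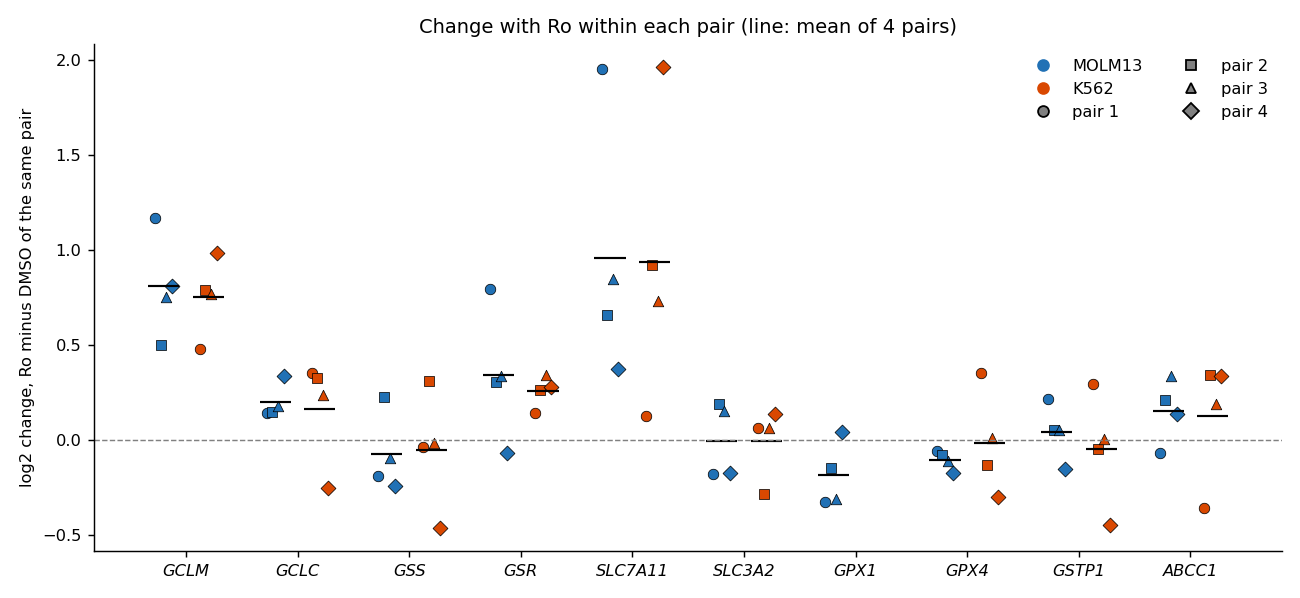
Log2 change (Ro minus DMSO of the same pair) of the 10 genes in MOLM13 and K562, with a symbol for each pair and a line at the mean of 4 pairs. All 8 points of GCLM and of SLC7A11 lie above 0, those of SLC3A2, GPX4 and GSTP1 lie on both sides, and GPX1 is drawn for MOLM13 alone because no K562 library held more than 3 counts.

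In MOLM13, 3 of the 10 genes (GCLC, GCLM and SLC7A11) were higher with Ro in all 4 pairs, against 10.2% of the 15031 genes tested. In K562, 3 of 9 (GCLM, GSR and SLC7A11) were, against 6.84% of 15227, and 2 of 9 (GCLM and SLC7A11) were higher in all 8 pairs, against 0.964% of 14320. Every Ro library lay above every DMSO library for 0 of 10 genes in MOLM13, against 0.665% of all genes, and for 2 of 9 in K562 (GCLM and GSR), against 0.584%. The median fitted change of the members was 0.10 in MOLM13 and 0.16 in K562, beside 0.00043 and 0.021 over all genes tested. Nothing is read from these counts, because the genes were chosen on this contrast.

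At an adjusted p under 0.05 edgeR's quasi-likelihood test without the block called 0 genes in MOLM13 (0% of all genes, and 126 higher and 49 lower where p was left unadjusted at the same threshold) and 0 in K562 (0%, and 52 and 135 unadjusted). DESeq2 called 1 and 0, and limma-voom 0 in both. With the pair as a block edgeR called 317 genes in MOLM13 (2.11%), of which 141 were higher (0.938%), with 2 of the 10 members among them. DESeq2 with the block called 0.459% of genes higher in MOLM13, with 1 member among them. In K562 edgeR with the block called 0 genes (0%, and 129 higher and 193 lower unadjusted), while DESeq2 with the block called 2 genes, both higher (0.0131%), of which 1 was a member. These calls are no test of the members, whose change with Ro was known when they were chosen. Over all genes the blocked MOLM13 fit called 49 without pair 3 and 358 without pair 4.

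The change with Ro was set side by side in the 2 lines as the interaction of line and treatment over all 16 libraries, in which edgeR called 0 of 16224 genes (0%, and 41 higher and 177 lower unadjusted, and 0 also by DESeq2 and limma-voom). For GCLM the change in K562 minus that in MOLM13 was -0.09 (SE 0.40), and with the block -0.05 (SE 0.18). For SLC7A11 it was -0.03 (SE 0.47), and with the block -0.08 (SE 0.37). For the other 7 genes that could be fitted in both lines it lay between -0.07 and 0.11 without the block.

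Between the lines, GSTP1 was the member with the largest difference among those detected in both. In DMSO libraries it averaged 2450.2 CPM in K562 (SD 147, n = 4) and 264 in MOLM13 (SD 66.9, n = 4), a log2 difference of 3.21 (SE 0.25, edgeR adjusted p 2.79e-07), or 9.23-fold. In Ro libraries it was 3.16 (SE 0.24, edgeR adjusted p 1.39e-07). The Ro comparison uses other libraries than the DMSO comparison, but these are paired with the DMSO libraries within each line, so it is not an independent repeat. GSTP1P1, a processed copy of GSTP1, has no row in the counts, so whether its reads were added to GSTP1 is not known.

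GPX1 was the reverse case. In MOLM13 its counts ranged from 853 to 6114, while the 4 K562 DMSO libraries held 1 count in all (in pair 1) and the 4 K562 Ro libraries 3 counts (in pair 4). GPX1 passed the filter on low counts only through MOLM13, so it had to differ, and a fitted fold change of such a gene depends on the prior count. From pooled counts, MOLM13 was 11068-fold above K562 with DMSO (exact binomial 95% interval 1986 to 437205) and 3516-fold above with Ro (1203 to 17053), intervals that cover counting error only. The pooled GPX1 level in K562 was 0.0127 CPM with DMSO, with an exact Poisson interval of 0.00032 to 0.0706. GENCODE 29 lists GPX1 as a polymorphic pseudogene, unlike RefSeq, and its processed copies GPX1P1 and GPX1P2 have no row in the counts. GPX4 was detected in all libraries of both lines and did not pass the test between them, with a difference of 0.15 in DMSO (normal 95% interval -0.32 to 0.62, edgeR adjusted p 0.649) and 0.27 in Ro (-0.15 to 0.68, adjusted p 0.303).

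The enzymes of synthesis and recycling were split. GCLM was higher in K562 by 1.24 in DMSO (SE 0.28, edgeR adjusted p 0.00286, 2.36-fold) and by 1.15 in Ro (SE 0.25, adjusted p 0.00168). In each comparison no K562 library overlapped a MOLM13 library. How many of all genes lacked overlap between the lines was not counted, so nothing is read from such separation, here or below. GSS was higher in K562 by 1.30 (SE 0.33, edgeR adjusted p 0.00646) and 1.38 (SE 0.27, adjusted p 0.000725), and the MOLM13 libraries of pair 4 came closest to the K562 range. GSR was higher by 0.68 (SE 0.22, edgeR adjusted p 0.0209) and 0.62 (SE 0.15, adjusted p 0.0029). The GSR call in DMSO was lost without the MOLM13 DMSO library of pair 1 (0.56, edgeR adjusted p 0.0717) or of pair 2 (0.62, adjusted p 0.0755).

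GCLC went the other way. It was lower in K562 by 0.48 on the log2 scale in DMSO, which did not pass the test (-0.48, SE 0.20, edgeR adjusted p 0.0716). The DMSO libraries of the 2 lines did not overlap for GCLC. In Ro it was lower by 0.52 (-0.52, SE 0.16, adjusted p 0.0129). DESeq2 called GCLC in DMSO too (adjusted p 0.0291), as did edgeR without the MOLM13 DMSO library of pair 4 (adjusted p 0.0477) or the K562 DMSO library of pair 4 (adjusted p 0.0249). With total-count scaling the GCLC difference was -0.06 in DMSO (edgeR adjusted p 0.84) and -0.25 in Ro (adjusted p 0.289), and passed in neither.

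For cystine import, SLC7A11 differed by -0.84 in DMSO (SE 0.36, edgeR adjusted p 0.0736, lower in K562 and not past the threshold) and by -0.88 in Ro (SE 0.27, adjusted p 0.0139), with overlapping libraries in both. Without the MOLM13 DMSO library of pair 1 the DMSO difference of SLC7A11 passed (-1.04, edgeR adjusted p 0.033), while with total-count scaling it was -0.49 (adjusted p 0.293). The Ro difference did not pass without the K562 Ro library of pair 1 (-0.72, adjusted p 0.0549) or with total-count scaling (-0.57, adjusted p 0.111). SLC3A2 did not pass in DMSO (0.24, normal 95% interval -0.38 to 0.86, edgeR adjusted p 0.58) or in Ro (0.27, interval -0.20 to 0.75, adjusted p 0.361). Without the outlying MOLM13 library of pair 4 SLC3A2 was higher in K562 by 0.68 in DMSO (edgeR adjusted p 0.0223) and by 0.59 in Ro (adjusted p 0.0054). ABCC1 was higher in K562 by 0.90 in DMSO (SE 0.24, edgeR adjusted p 0.00849) and by 0.91 in Ro (SE 0.23, adjusted p 0.00387), without overlap in DMSO.

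**Figure D4:**
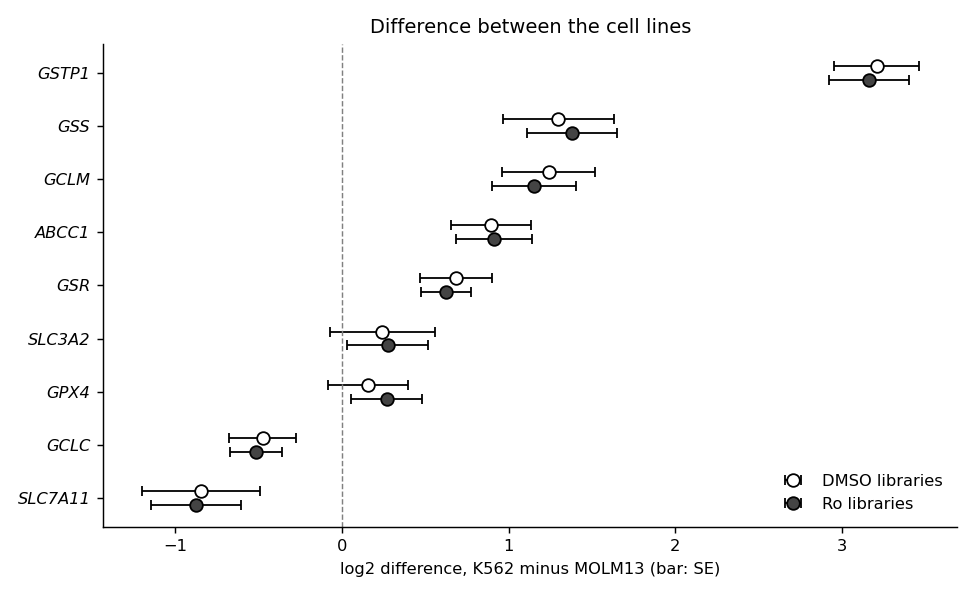
Fitted log2 difference between the lines (K562 minus MOLM13, bars: SE) for 9 of the 10 genes in DMSO libraries (open) and Ro libraries (filled), 4 libraries per group. GSTP1 lies at 3.21 and 3.16, GSS, GCLM, ABCC1 and GSR lie above 0, GCLC and SLC7A11 lie below 0, and GPX1, with at most 3 counts in any K562 library, is not drawn.

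In DMSO 5 of the 10 genes were called higher in K562, against 20.3% of the 15268 genes tested, and 1 of 10 (GPX1) lower, against 21.1%. In Ro it was 5 of 10 higher, against 27.5% of 15346, and 3 of 10 (GPX1, GCLC and SLC7A11) lower, against 26.8%, so that the share of lower members was near that of all genes. These counts include GPX1, which passed the filter only through MOLM13. The median difference of the members was 0.46 and 0.45, beside 0.0047 and -0.051 over all genes. Total-count scaling moved the median of all genes to 0.41 in DMSO and 0.23 in Ro, and the calls over all genes from 3098 higher and 3215 lower to 5008 and 2023 in DMSO, and from 4218 and 4112 to 5319 and 2666 in Ro. Under it the members called were 5 higher and 1 lower in both comparisons. Upper-quartile scaling moved the median in Ro to -0.12 and left 8 members called.

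Of the wider pathway, a list of 62 symbols (64 rows, since GGT1 and BACH1 each name a pair of rows) covers cysteine supply, glutathione breakdown, other peroxidases and transferases, glutaredoxins and glyoxalases, other carriers, the other light chains of SLC3A2 and transcription regulators of the pathway. With Ro, edgeR called 0 of 48 tested in MOLM13 without the block (1 at an unadjusted p under 0.05) and 0 with it (8 unadjusted, 3 of them higher), and DESeq2 0 either way (0 and 5 unadjusted). Over all 15031 genes tested, the unadjusted counts with the block were 1135 higher and 1450 lower in edgeR, and 569 and 1178 in DESeq2. Nothing is therefore read from the unadjusted counts of the list. In K562 edgeR and DESeq2 called 0 of 49 either way, with 0 unadjusted. Without the block the median change of the list was -0.09 in MOLM13 and 0.06 in K562, beside 0.00043 and 0.021 over all genes tested. Fitted changes were above 0 for 16 of 48 in MOLM13, against 50.1% of all genes, and for 29 of 49 in K562, against 54.2%. The gene at an unadjusted p under 0.05 in edgeR without the block was SLC1A5, a carrier of glutamine and other neutral amino acids, named after its values were seen. It was at 1.44 to 2.18 CPM in MOLM13 with DMSO and at 2.11 to 3.15 CPM with Ro. Its changes within pairs ran from 0.48 to 0.67 in MOLM13 but from -0.64 to 0.06 in K562.

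Between the lines in DMSO, 15 of the 50 other pathway genes tested were called higher in K562 and 7 lower, against 20.3% and 21.1% of all genes. In Ro 20 of 49 were called higher and 9 lower, against 27.5% and 26.8%. Glutathione transferases were called higher in K562 in 5 of 11 cases and lower in 0 in DMSO, and higher in 5 of 10 and lower in 1 in Ro. In DMSO cysteine supply had 3 higher and 1 lower of 7, glutathione breakdown 3 and 2 of 9, other carriers 2 and 1 of 7, and regulators 0 and 1 of 4. The 4 with the smallest p in DMSO were SLC7A8, GSTT1, GPX7 and ABCC5. GSTT1, with 0 to 3 counts in MOLM13 DMSO libraries, and GPX7, with 0 to 1 in K562 DMSO libraries, passed the filter only through the other line and so had to differ, and both are in the counts above.

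SLC7A8 (LAT2), another light chain of SLC3A2, ranged from 37.1 to 51.3 CPM in K562 with DMSO and from 1.03 to 1.46 CPM in MOLM13. GSTT1, a theta class transferase, ranged from 4.36 to 8.93 CPM in K562 and from 0 to 0.133 in MOLM13. GPX7, a peroxidase of the endoplasmic reticulum, was the reverse, at 8.37 to 10.3 CPM in MOLM13 and 0 to 0.291 in K562. ABCC5, an exporter related to ABCC1, ranged from 34.9 to 48.5 CPM in K562 and from 12.0 to 17.3 CPM in MOLM13. None of these ranges overlapped between the lines, with Ro or with DMSO. These genes were named for their small p between the lines in DMSO, so nothing is read from that.

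The genes whose changes within pairs were most like those of GCLM were found by the root mean square difference over the 8 pairs, among 14319 genes. They were SRXN1 (sulfiredoxin, 0.275), CROCC (rootletin of the ciliary rootlet, 0.278), ME1 (malic enzyme, a source of NADPH, 0.316), C21orf91-OT1 (0.325) and FABP3 (a fatty acid binding protein, 0.338). The median over all genes was 0.88. Among the members SLC7A11 was closest, in place 44 (0.492), then GSR in place 72 (0.524) and GCLC in place 1157 (0.688). SLC3A2 lay in place 6163 (0.851). The members were chosen on their change with Ro, which this difference is made of, so their places are a description and nothing is read from them.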

How the data were processed

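The authors deposited raw read counts, neither scaled nor normalized, in 1 table of 25221 genes (Entrez identifier and symbol) by 16 libraries, which has 0 spike-in rows and 0 columns without a sample. Totals ranged from 3143129 to 43571060. Total RNA was turned into libraries with the QuantSeq 3′ FWD kit, and the submitters' processing notes name Trim Galore, STAR 2.5.3a, SAMtools 1.5 and hg38. The counting program, its annotation and its strand setting were not given in the sources used here, so genes that overlap or have near-identical copies are uncertain.

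From these counts, each comparison was fitted with edgeR 4.0.16 in R 4.3.3 (TMM, quasi-likelihood F test, Benjamini-Hochberg over all genes tested, threshold 0.05) on genes that reached 10 counts in 4 or more of its libraries. The comparisons were Ro against DMSO in each line, K562 against MOLM13 in DMSO and in Ro, and the interaction in all 16 libraries. CPM used TMM library sizes over all libraries, and log2 changes within pairs added a prior count of 2. The fits were also run on simulated counts with the same dispersion for every gene, a simpler setting than these libraries. No result here rests on that run. Alternatives were DESeq2 1.42.0, limma-voom (limma 3.58.1), other scalings, no filter, a minimum of 50 counts, the pair as a block, and leaving out each library or pair. Tables used Python 3.11.15, pandas 2.3.3 and scipy 1.17.1. Gene positions are from RefSeq GRCh38.p14, the assembly of hg38, and gene types from GENCODE 29.

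The pair numbers come from the labels. Deviations from the group means were correlated across genes between DMSO and Ro libraries. Same-numbered libraries gave 0.385 to 0.831 in MOLM13 and 0.109 to 0.416 in K562. Differently numbered libraries gave -0.619 to 0.357 in MOLM13 and -0.261 to 0.186 in K562. Deviations cancel out within each group, so positive values for the same number push the others down. The differently numbered values are therefore no independent background. The Ro library of K562 pair 2 correlated more with the DMSO library of pair 3 (0.186) than with that of pair 2 (0.109). The numbers were taken to pair the libraries within a line, though this check does not bear out K562 pair 2.

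The members and all gene lists were chosen with earlier results of these data known. The genes named were all 10 members, other pathway genes past the adjusted threshold with Ro (0 genes), the 4 with the smallest p past it between the lines in DMSO, and the 5 closest to GCLM in changes within pairs. SLC1A5 was named besides these, after its values were seen. HOXA9, listed as a pair of rows, was left out of the marker sums.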

Additional observations from a re-analysis of the deposited data

Results flagged for a closer look

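In groups of 4 libraries, a value was singled out where its gap to the nearest other library passed Dixon's 95% critical share of the range of the group, which chance does in about 1 of 20 groups. Of 38 combinations of gene and group 4 met this. The MOLM13 DMSO library of pair 4 stood apart for GSS, at 90.0 CPM, and for SLC3A2, at 141 CPM, with gaps of 0.846 and 0.983 of the range. The MOLM13 Ro library of pair 4 stood apart for GPX1, at 179.7 CPM, with a gap of 0.835. The K562 DMSO library of pair 3 stood apart for GSR at the low end, at 103 CPM, with a gap of 0.855, and the cause of these 4 values was not tested.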

How the results depend on the processing

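For Ro against DMSO, the number of genes called in MOLM13 went from 0 to 317 with the replicate block in edgeR, 266 with the block in DESeq2 and 1 with DESeq2 alone, and that of members from 0 to 2, 1 and 0. In K562 the number of genes called went from 0 to 2 with the block in DESeq2. From pairs 1 and 3 alone, with the block in edgeR, it was 418, though that fit rests on few libraries. Each of these called 1 member. With the block in edgeR on all pairs the number of genes remained 0. Leaving out each library, or each pair with the block, gave 0 to 358 genes and 0 to 3 members in MOLM13, and 0 genes and 0 members in K562. Calls of members with Ro are no test, since they were chosen on that contrast. For the line difference in the Ro change, 0 genes and 0 members were called under every alternative run. The same leave-one-out fits gave 5048 to 6582 genes and 4 to 7 members between the lines in DMSO, where the filter of 4 libraries then drops GPX1 if a MOLM13 library is left out, and 7075 to 9120 genes and 7 to 8 members in Ro. The other alternatives kept these counts within 1.5 times. GPX4 between the lines in DMSO, not past the threshold, changed sign without the K562 DMSO library of pair 4 (-0.0067), with a range of -0.0067 to 0.3055 over the libraries left out. With the pair number as a block between the lines, where same-numbered libraries correlated by -0.043 on average in DMSO and -0.080 in Ro and so share only a number, 5738 genes were called in DMSO and 7523 in Ro, and 6 and 8 members. Of the members' values, 148 of 156 between the lines in DMSO and 152 of 156 in Ro kept their direction and their side of the threshold. With Ro, 13 of 210 values in MOLM13 and 0 of 198 in K562 moved by more than the SD between pairs. The small K562 DMSO libraries limit what can be seen of SLC7A11, with 15 and 27 counts in them.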
